A study of Mus musculus with 8 samples.

Results

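Expression of the secreted protease inhibitors and of the ribonuclease A family was followed in the epididymal fat pad of mice. The genes were chosen by name: every symbol that reads Wfdc, Cst, Spink, Spint or Rnase followed by a digit. This gave 52 genes of the 22180 measured, namely 18 Wfdc, 8 Cst, 12 Spink, 5 Spint and 9 Rnase genes, and all 52 are described whether bright or dim. The epididymal fat pad is a white adipose depot that lies against the epididymis, the duct in which sperm mature. Total RNA from the left pad of 8 male C57BL/6 mice was measured on Affymetrix Mouse Gene 2.0 ST arrays, 1 array per mouse. All 8 mice were weaned at 3 weeks of age onto an n-6 rich diet with 45% of energy from fat and were housed singly. From 6 weeks of age, 4 of them received the glucocorticoid prednisolone every day for 4 weeks in sweet potato puree, at a labelled dose of 40 mg per kg per square metre. The other 4 received the puree alone and are called vehicle mice, and fat was collected from both groups at 10 weeks of age. Mice carry the replicate number of their label. The labels do not say that vehicle mouse 1 and prednisolone mouse 1 form a pair, and mice were treated as unpaired.

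The names of the 5 families refer to protein folds. Wfdc proteins carry the whey acidic protein domain, a small core held by disulfide bonds, and many of them block serine proteases such as neutrophil elastase. Spint proteins carry Kunitz domains and Spink proteins Kazal domains, both of which plug the active site of trypsin-like serine proteases. Cystatins, the Cst genes, inhibit cysteine proteases such as the lysosomal cathepsins. Ribonuclease A proteins are small secreted enzymes that cut RNA, and several members made in the male tract have lost the catalytic residues. In the epididymis, androgens maintain the epithelium, whose successive segments secrete different sets of these proteins into the fluid around sperm, and many of the genes stand side by side in the genome.

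The starts of 6 chosen genes are shown. Of these, Cst12 and Rnase10 were brightest in 1 prednisolone mouse and the other 4 were brightest in 1 vehicle mouse. The stretches are the 250 bases before each transcript start in RefSeq's GRCm38.p6 table. The build behind the arrays' annotation is not given in the sources used here. The stretches lie at chr2:148789115-148789364 (plus strand) for Cst12, chr14:51007501-51007750 (plus) for Rnase10, chr14:51057243-51057492 (minus) for Rnase12, chr2:164698251-164698500 (plus) for Spint4, chr2:164674088-164674337 (minus) for Wfdc11 and chr2:164221664-164221913 (minus) for Wfdc15b. Each reads 5′ to 3′ in the direction of transcription. Capitals mark TGTTCT, the reverse complement of AGAACA, a core element whose letters glucocorticoid and androgen receptors share.
Cst12: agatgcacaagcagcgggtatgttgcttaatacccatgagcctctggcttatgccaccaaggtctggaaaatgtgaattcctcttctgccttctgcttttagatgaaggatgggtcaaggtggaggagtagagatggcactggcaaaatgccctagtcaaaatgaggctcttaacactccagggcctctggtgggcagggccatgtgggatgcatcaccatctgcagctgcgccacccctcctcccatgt
Rnase10: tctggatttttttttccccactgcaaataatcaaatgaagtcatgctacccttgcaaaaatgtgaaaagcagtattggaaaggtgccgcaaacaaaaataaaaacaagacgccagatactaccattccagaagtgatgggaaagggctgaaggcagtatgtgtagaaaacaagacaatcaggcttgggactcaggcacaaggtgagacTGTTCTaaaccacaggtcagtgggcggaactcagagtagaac
Rnase12: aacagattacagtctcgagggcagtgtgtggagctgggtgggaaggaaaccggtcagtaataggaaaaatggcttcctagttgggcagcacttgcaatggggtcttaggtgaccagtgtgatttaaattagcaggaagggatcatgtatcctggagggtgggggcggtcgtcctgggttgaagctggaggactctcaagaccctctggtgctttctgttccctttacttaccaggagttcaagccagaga
Spint4: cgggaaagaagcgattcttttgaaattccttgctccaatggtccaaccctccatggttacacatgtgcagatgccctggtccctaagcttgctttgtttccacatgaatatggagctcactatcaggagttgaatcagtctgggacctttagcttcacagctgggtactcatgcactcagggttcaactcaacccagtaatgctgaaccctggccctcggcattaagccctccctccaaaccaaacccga
Wfdc11: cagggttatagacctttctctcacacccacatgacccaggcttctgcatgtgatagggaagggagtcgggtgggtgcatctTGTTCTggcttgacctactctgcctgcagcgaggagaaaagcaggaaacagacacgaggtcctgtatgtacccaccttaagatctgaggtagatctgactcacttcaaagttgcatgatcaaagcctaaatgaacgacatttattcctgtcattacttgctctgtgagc
Wfdc15b: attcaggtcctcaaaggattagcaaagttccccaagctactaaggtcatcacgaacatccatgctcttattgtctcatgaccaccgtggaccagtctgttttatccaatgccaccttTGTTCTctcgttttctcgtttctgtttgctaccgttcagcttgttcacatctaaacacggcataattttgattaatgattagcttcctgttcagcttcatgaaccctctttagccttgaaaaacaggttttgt
These letters stood at -42 to -37 of Rnase10, -169 to -164 of Wfdc11 and -133 to -128 of Wfdc15b, counted back from the start. They were not found in the stretches of Cst12, Rnase12 and Spint4. No other family gene of the table that varied at least 4-fold between mice held them, so the 6 shown overstate their share. Over all 27025 genes of the table, 16.1% held AGAACA on either strand, against 5 of the 35 family genes that the table held (14.3%). TATAAA, the letters of a TATA box, stood in 13% of all genes and 4 of 35 family genes (11.4%). AGGAAGT, letters bound by ETS factors, stood in 7.77% of all genes and 2 of 35 family genes (5.71%). Of the 21 family genes in the table whose level varied at least 4-fold between mice, 3 held AGAACA, 1 held TATAAA and 0 held AGGAAGT. Shares of the 3 motifs in the families were therefore near those of all genes, and a match to letters is a description of sequence and not a binding site.

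Values are on the log2 scale, so a step of 1 is a doubling of signal. Over all probe sets they ran from 1.68 to 14.40, array medians lay between 6.09 and 6.13, and any pair of arrays correlated at 0.946 to 0.991 across genes. Markers of fat cells were bright in every mouse, with a summed level of 16.13 to 16.29 with prednisolone and 16.05 to 16.29 with vehicle. The 17 measured markers of epididymal epithelium, of 20 listed, summed to 16.42 in prednisolone mouse 2, 15.80 in vehicle mouse 1, 15.40 in vehicle mouse 4, 12.83 in prednisolone mouse 1, 10.83 in vehicle mouse 3 and between 9.75 and 9.88 in the other 3. General epithelial markers followed, at 12.49 in vehicle mouse 1, 11.79 in vehicle mouse 4, 11.62 in prednisolone mouse 2 and 9.62 to 10.38 in the other 5. Of the epididymal markers, Sva alone stayed at 2.92 to 3.13 in all mice. Mesothelial markers summed to 10.96 to 11.66 with prednisolone and 9.93 to 12.49 with vehicle, mast cell markers to 8.49 to 9.41 and 8.55 to 9.91, and natural killer and T cell markers to 7.96 to 8.91 and 8.21 to 8.52. The labelled tissue was therefore present on all arrays, and 3 of the 8 also carried strong epididymal signal. In such bulk RNA, fewer cells of a type and less RNA per cell cannot be told apart.

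Wide differences in these families lay between individual mice, within both treatment groups for some genes and within 1 group for others. Wfdc9 ran from 6.13 to 11.90 with vehicle but from 6.30 to 6.71 with prednisolone. Cst12 ran from 4.41 to 10.34 with prednisolone but from 4.53 to 5.95 with vehicle. The highest and lowest of the 8 values differed by 2 or more, that is at least 4-fold, in 28 of the 52 genes, against 3.27% of all genes. The median range was 2.83 for the 52 genes and 0.56 for all genes. By family, 10 of 18 Wfdc, 2 of 8 Cst, 6 of 12 Spink, 4 of 5 Spint and 6 of 9 Rnase genes reached a range of 2. Spink13 fell just short at 1.83, Wfdc17 lay just above at 2.09, Wfdc21 and Rnase2b ranged over 1.69 and 1.09, and the remaining 21 genes varied by under 1. Of the 28, 22 were highest in vehicle mouse 1, 4 in prednisolone mouse 2, 1 in prednisolone mouse 3 and 1 in vehicle mouse 3. A range of 1 or more was reached by 31 of the 52 genes (15.3% of all genes) and of 3 or more by 25 (1.45%).

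**Figure D1:**
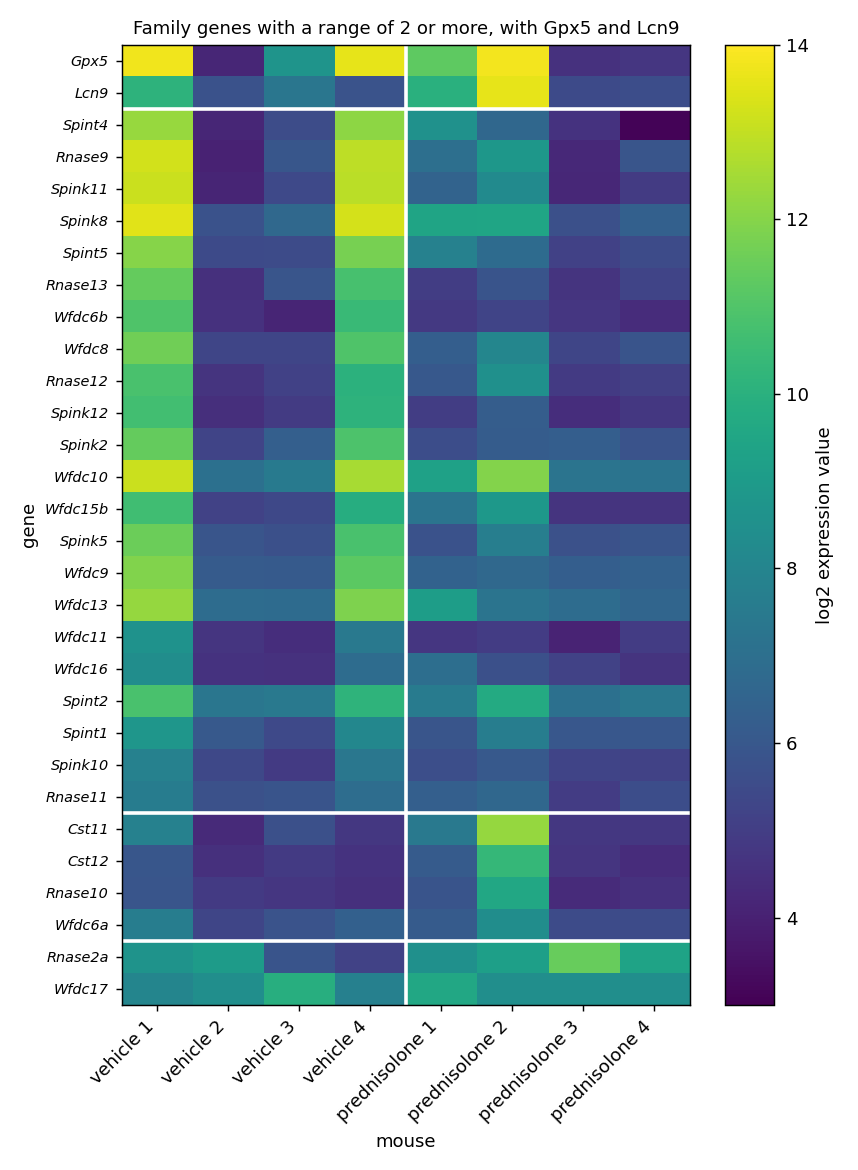
Colour gives the log2 expression value of each of the 28 genes with a range of 2 or more (rows) in each mouse (columns, vehicle left and prednisolone right), with Gpx5 and Lcn9 on top and white lines between groups of genes by the mouse in which they were highest. The 22 genes of the second block are bright in vehicle mice 1 and 4, the 4 genes of the third in prednisolone mouse 2, and Rnase2a and Wfdc17 at the bottom follow neither pattern.

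Epididymal secretory genes were read beside Gpx5, a glutathione peroxidase that the epididymis secretes, and Lcn9, an epididymal lipocalin. Gpx5 read 13.78, 4.19, 8.69 and 13.61 in vehicle mice 1 to 4 and 11.27, 13.81, 4.57 and 4.76 in prednisolone mice 1 to 4. Lcn9 read 10.12, 5.76, 7.31 and 5.81 in the vehicle mice and 9.99, 13.61, 5.45 and 5.59 in the prednisolone mice. The 2 genes thus part company in vehicle mouse 4, where Gpx5 was near its top and Lcn9 near its floor. In the 22 genes that were highest in vehicle mouse 1, the median over genes was 11.40 in that mouse, 10.83 in vehicle mouse 4, 7.04 in prednisolone mouse 2, 6.38 in prednisolone mouse 1 and 5.14 to 5.56 in the other 4. Vehicle mouse 4 came next in 21 of the 22, all but Wfdc16, and over all 22 it lay 0.19 to 1.47 below vehicle mouse 1.

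Kunitz inhibitors gave the widest range of all 52 genes. Spint4, a small Kunitz protein of the epididymis, read 12.31, 4.20, 5.56 and 12.12 in vehicle mice 1 to 4 and 8.56, 6.68, 4.62 and 3.11 in prednisolone mice 1 to 4, a range of 9.21. Its neighbour Spint5 read 12.00, 5.46, 5.50 and 11.73 with vehicle and 7.84, 6.86, 5.12 and 5.50 with prednisolone. In both genes vehicle mice 1 and 4 stood over 3 log2 units above every other mouse, and the remaining vehicle mice lay among the prednisolone mice. Spint1 and Spint2 encode membrane-anchored inhibitors of matriptase, prostasin and the activator of hepatocyte growth factor, and are made by many epithelia. Spint1 read 8.79, 6.09, 5.44 and 8.10 with vehicle and 5.91, 7.66, 5.98 and 5.97 with prednisolone. Spint2 read 10.86, 7.33, 7.43 and 10.16 with vehicle and 7.57, 9.73, 7.07 and 7.34 with prednisolone. Prednisolone mouse 2 joined the 2 bright vehicle mice for Spint1 and Spint2, the order that general epithelial markers showed, whereas it stayed far below them for Spint4 and Spint5. Spint3 varied little, from 5.13 to 5.87.

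Known targets of Spint1 and Spint2 were read as well. Matriptase, encoded by St14, read 9.31 and 8.66 in vehicle mice 1 and 4, 9.23 in prednisolone mouse 2 and 6.15 to 7.44 in the other 5. Prostasin, encoded by Prss8, read 9.42, 8.71 and 8.13 in the same 3 mice and 6.40 to 6.53 elsewhere. Both proteases were thus bright in the mice in which Spint1 and Spint2 were bright. The activator of hepatocyte growth factor, encoded by Hgfac, did not share this order: it read 8.15 in prednisolone mouse 2, 6.73 and 6.59 in vehicle mice 1 and 4 and 6.20 to 6.54 in the other 5. St14 and Prss8 were named after their values were seen, and they were the only 2 of 23 listed proteases with a range of 2 or more.

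Whey acidic protein genes near Spint4 and Spint5 followed the same mice. Wfdc10 read 13.12, 7.04, 7.49 and 12.55 with vehicle and 9.28, 11.96, 7.22 and 7.19 with prednisolone, so that prednisolone mouse 2 lay close under the 2 bright vehicle mice. Wfdc9 read 11.90, 6.16, 6.13 and 11.21 with vehicle and 6.46, 6.71, 6.30 and 6.40 with prednisolone. Wfdc13 read 12.26, 6.88, 6.84 and 11.88 with vehicle and 9.14, 7.23, 6.87 and 6.59 with prednisolone. These neighbours share the 2 bright vehicle mice and differ in the next one: prednisolone mouse 2 for Wfdc10, prednisolone mouse 1 for Wfdc13 and no clear mouse for Wfdc9. Wfdc8 read 11.60 and 10.98 in vehicle mice 1 and 4, 5.29 and 5.32 in vehicle mice 2 and 3, and 6.28, 8.05, 5.29 and 5.86 with prednisolone. Wfdc6b read 10.97 and 10.44 in those bright mice and 4.12 to 5.24 in the other 6. Wfdc11 read 8.60 and 7.44 there and 4.09 to 4.97 in the other 6. Wfdc6b and Wfdc11 therefore separate these 2 mice from all others. Wfdc15b, in another run of Wfdc genes, read 10.62, 5.18, 5.39 and 9.84 with vehicle and 7.24, 8.85, 4.65 and 4.65 with prednisolone. Wfdc16 was the exception to the order, at 8.38, 4.60, 4.57 and 6.91 with vehicle and 6.99, 5.68, 5.17 and 4.64 with prednisolone, which puts prednisolone mouse 1 just above vehicle mouse 4.

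In RefSeq order, the genes of this run stand as Wfdc2, Spint3, Wfdc6a, Eppin, Wfdc8, Wfdc6b, Wfdc16, Wfdc9, Wfdc10, Wfdc11, Wfdc13, Spint4, Spint5 and Wfdc3. The 10 inner family genes, from Wfdc6a to Spint5, all had a range of 2 or more. The genes at the ends did not: Wfdc2 ranged over 0.48, Spint3 over 0.74 and Wfdc3 over 0.29. Eppin, a protein with a whey acidic protein domain and a Kunitz domain that coats sperm, is not a member by name and read 10.59 and 9.61 in vehicle mice 1 and 4, 10.83 in prednisolone mouse 2 and 5.60 to 7.18 in the other 5. It was named for its place in the run after its values were seen. Other runs were mixed. From Rnase10 to Rnase2a, 5 of the 8 measured genes reached a range of 2. So did 1 of the 4 genes from Wfdc5 to Wfdc15b and 1 of the 3 from Wfdc17 to Wfdc21. Among Kazal genes it was 3 of the 6 from Spink1 to Spink11 and 1 of the 3 from Spink10 to Spink13. Among cystatins from Cst11 to Cst10 it was 2 of the 6 measured.

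**Figure D2:**
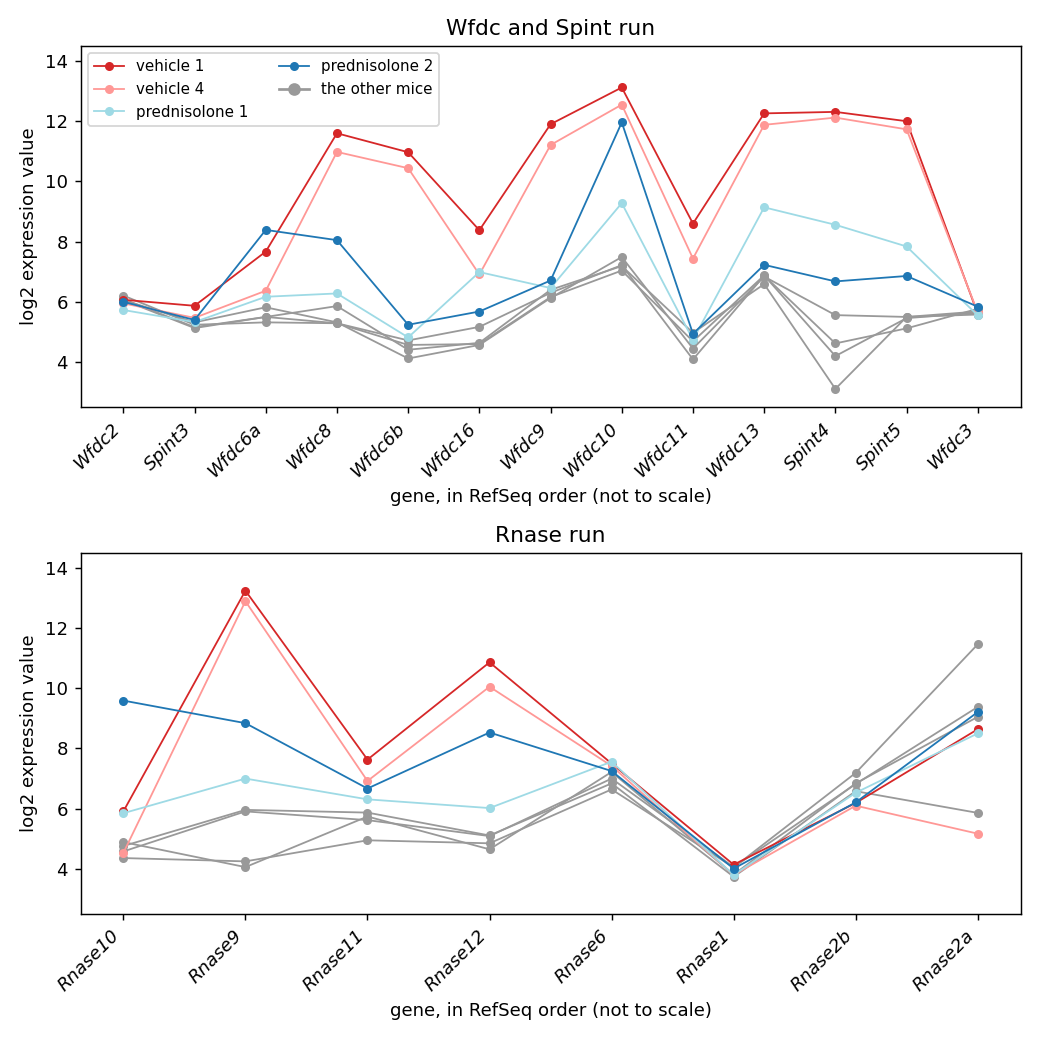
Log2 expression value of each mouse (lines) for the genes of the Wfdc and Spint run (top) and of the Rnase run (bottom), placed in RefSeq order with even spacing, so that distance is not to scale. Vehicle mice 1 and 4 stand far above the 4 grey mice from Wfdc8 to Spint5, prednisolone mouse 2 joins them at Wfdc10, and all 8 mice meet at the end genes Wfdc2, Spint3 and Wfdc3.

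Kazal inhibitors of the epididymis varied between the same mice. Spink8 read 13.52, 5.79, 6.71 and 13.27 in vehicle mice 1 to 4 and 9.41, 9.48, 5.70 and 6.36 in prednisolone mice 1 to 4. Spink11 read 13.13, 4.14, 5.42 and 12.86 with vehicle and 6.50, 8.25, 4.22 and 4.91 with prednisolone, a range of 8.99. For both genes prednisolone mice 1 and 2 came next after the bright vehicle mice. Spink12 read 10.65, 4.47, 4.93 and 10.09 with vehicle and 4.99, 6.23, 4.45 and 4.80 with prednisolone. Spink10 read 7.84, 5.38, 4.85 and 7.36 with vehicle and 5.66, 6.08, 5.25 and 5.19 with prednisolone. Spink2, an inhibitor of the sperm protease acrosin that germ cells also make, read 11.41, 5.26, 6.34 and 10.94 with vehicle and 5.59, 6.21, 6.28 and 5.81 with prednisolone. Spink2 showed no step in prednisolone mouse 2, unlike Spink11. Markers of sperm and spermatids summed to 12.93 to 13.36 with prednisolone and 12.83 to 13.34 with vehicle, most of it from Odf1, a sperm tail gene at 12.57 to 12.92 in every mouse. Of the 9 germ cell markers measured, however, 6 had a range of 2 or more. Smcp, of the sperm mitochondrial capsule, read 10.53 and 9.21 in vehicle mice 1 and 4, 8.71 in prednisolone mouse 3 and 4.72 to 7.21 in the other 5. Akap4, of the sperm tail sheath, read 8.81 and 7.60 in vehicle mice 1 and 4, 7.44 in prednisolone mouse 3 and 5.95 to 6.62 elsewhere. Smcp and Akap4 were thus high in the mice in which Spink2 was high, and also in prednisolone mouse 3, where Spink2 was not. Spata18 was highest in vehicle mice 1 and 4 too, at 8.95 and 7.74. Prm1, Tnp1 and Tnp2 were highest in prednisolone mouse 3, at 9.57, 8.78 and 8.95. Tnp1 and Tnp2 read 7.43 and 7.52 in vehicle mouse 3, above their 7.02 and 7.43 in vehicle mouse 4. These markers were named after their values were seen, and the part of germ cells in Spink2 was not tested. Spink5, the inhibitor of skin kallikreins known as LEKTI, read 11.55, 5.90, 5.67 and 10.84 with vehicle and 5.78, 7.69, 5.73 and 5.89 with prednisolone. Spink13 followed the same mice at a low level, with 4.65 and 4.33 in vehicle mice 1 and 4 and 2.82 to 3.45 in the other 6. Spink1, Spink4, Spink6, Spink7 and Spink14 varied by under 1.

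Ribonucleases of the male tract split between both patterns. Rnase9, which lacks the catalytic residues of the family, read 13.24, 4.06, 5.96 and 12.89 with vehicle and 7.00, 8.84, 4.25 and 5.91 with prednisolone, a range of 9.18. Rnase13 read 11.39, 4.53, 5.90 and 10.82 with vehicle and 4.99, 5.86, 4.64 and 5.24 with prednisolone. Rnase12 read 10.86, 4.65, 5.11 and 10.05 with vehicle and 6.02, 8.53, 4.85 and 5.09 with prednisolone. All 3 were brightest in vehicle mice 1 and 4, and prednisolone mouse 2 stood out next for Rnase9 and Rnase12. Rnase11 followed with smaller steps, at 7.63, 5.74, 5.87 and 6.92 with vehicle and 6.31, 6.67, 4.95 and 5.62 with prednisolone. Rnase10, a protein of the proximal epididymis that sperm need to bind the egg coat, stands next to Rnase9 in the genome and had the other pattern. It read 9.59 in prednisolone mouse 2, 5.85, 4.36 and 4.58 in the other prednisolone mice, and 5.91, 4.89, 4.76 and 4.53 with vehicle. Vehicle mouse 4, near the top for Rnase9, was thus among the lowest for Rnase10. Rnh1, the cytosolic inhibitor of ribonuclease A, lay between 9.58 and 10.25 on all arrays.

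Cystatins of the epididymis shared the pattern of Rnase10. Cst11 read 12.25 in prednisolone mouse 2, 7.43, 4.78 and 4.80 in prednisolone mice 1, 3 and 4, and 7.82, 4.29, 5.68 and 4.78 in vehicle mice 1 to 4. Cst12 read 10.34 in prednisolone mouse 2, 6.17, 4.70 and 4.41 in the other prednisolone mice, and 5.95, 4.53, 4.85 and 4.62 with vehicle. In both genes prednisolone mouse 1 and vehicle mouse 1 came next and vehicle mouse 4 lay at the level of the dim mice. Wfdc6a, beside Eppin in the run of Wfdc genes, was intermediate between the patterns, at 8.39 in prednisolone mouse 2, 7.67 and 6.37 in vehicle mice 1 and 4, 6.17, 5.50 and 5.50 in the other prednisolone mice and 5.32 and 5.82 in vehicle mice 2 and 3. Of the markers of epididymal epithelium, the lipocalin Lcn8 showed the pattern of Cst11, at 13.50 in prednisolone mouse 2 and 9.26 in prednisolone mouse 1, with 9.51 and 6.64 for vehicle mice 1 and 4. Its relative Lcn5 showed that of Rnase9, with vehicle mice 1 and 4 at 13.82 and 13.64 and prednisolone mouse 2 at 10.22. Both were named after their values were seen.

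The correlation with Gpx5 and Lcn9 over the 8 mice was read for the 28 variable genes, grouped as above by their brightest mouse. Lcn9 was itself brightest in prednisolone mouse 2, and Gpx5 was near its top in vehicle mice 1 and 4. The grouping therefore largely sets which reference each group follows. Pearson's r was tested for each of 22179 genes by an exact two-sided permutation test over all 40320 pairings, with Benjamini-Hochberg adjustment. No gene passed an adjusted p of 0.05 for Gpx5 (0%, lowest adjusted p 0.3) or for Lcn9 (0%, lowest 0.55). With 40320 pairings, the smallest p the test can give is too large for a single gene to pass after adjustment over 22179 genes. The lack of calls is therefore largely set by the number of mice and does not show that relations are weak. Each r is given as a description. At an unadjusted p under 0.05, 21 of 52 genes correlated positively with Gpx5 against 5.92% of all genes, and 3 negatively against 8.59%. With Lcn9, 4 correlated positively against 2.1% of all genes and 1 negatively against 3.32%. The median r with Gpx5 was 0.65 for the 52 genes and -0.19 for all genes, and with Lcn9 it was 0.22 and -0.10. Gpx5 and Lcn9 were themselves correlated (r = 0.71, exact permutation p = 0.0492, adjusted p = 0.343 over the genes tested against Gpx5), so both are readings of partly the same differences between mice.

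In the 22 genes brightest in vehicle mouse 1, r with Gpx5 ran from 0.65 to 0.93 and r with Lcn9 from 0.05 to 0.59. The highest r with Gpx5 belonged to Wfdc10 (r = 0.93, exact permutation p = 0.00397, adjusted p = 0.3; rho = 0.90, p = 0.00456) and Wfdc15b (r = 0.93, exact permutation p = 0.00437, adjusted p = 0.3; rho = 0.83, p = 0.0154). Without the 2 mice farthest from the median of Gpx5, vehicle mouse 2 and prednisolone mouse 3, r was 0.92 and 0.93. Vehicle mice 1 and 4 form a cluster of their own in most of the 22 genes, so r was taken again within the other 6 mice, without a test. There the 22 genes kept a positive r with both references, 0.29 to 0.97 with Gpx5 and 0.22 to 0.99 with Lcn9, and Gpx5 and Lcn9 correlated at 0.97. Spink11 rose from 0.34 to 0.98 with Lcn9 when the 2 bright vehicle mice were left out. For Spink2 the r with Lcn9 of 0.05 became -0.21 when vehicle mouse 1 was omitted, 0.30 when vehicle mouse 4 was, and 0.22 with both out. The r with Lcn9 turned negative in 12 of the 22 genes when the mice farthest from the median of Lcn9, prednisolone mouse 2 and vehicle mouse 1, were left out.

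The 4 genes brightest in prednisolone mouse 2 had r of 0.89 to 0.98 with Lcn9 and 0.57 to 0.83 with Gpx5. Cst11 had the highest r with Lcn9 of the 52 genes (r = 0.98, exact permutation p = 0.00067, adjusted p = 0.68; rho = 0.88, p = 0.00724). Without prednisolone mouse 2 and vehicle mouse 1 its r remained 0.98 over 6 mice (exact permutation p = 0.0208). As a slope in limma, Cst11 changed by 0.87 log2 units per log2 unit of Lcn9 with an adjusted p of 0.00219, and it was the only member among 8 genes so called (0.0361% of all genes), where the same model called 3 genes and no member for Gpx5 (0.0135%). Cst12 (r = 0.93, exact permutation p = 0.000843, adjusted p = 0.68; rho = 0.83, p = 0.0154) and Rnase10 (r = 0.93, exact permutation p = 0.00139, adjusted p = 0.68; rho = 0.88, p = 0.00724) followed Lcn9 almost as closely. Without those mice r was 0.96 for Cst12 and 0.93 for Rnase10. Wfdc6a had r of 0.89 with Lcn9 and 0.83 with Gpx5, and ranked the 8 mice in exactly the order of Gpx5 (rho = 1, exact permutation p = 4.96e-05, the smallest the test can give). Without prednisolone mouse 2 and vehicle mouse 1 its r with Lcn9 was 0.51 (exact permutation p = 0.322). Leaving out 1 mouse at a time gave 0.74 to 0.94. With 6 mice the test has little power, so it cannot tell whether the relation of Wfdc6a with Lcn9 rests on those mice. At the other end, Rnase2b, an eosinophil-associated ribonuclease, was lower where Gpx5 was higher (r = -0.94, exact permutation p = 0.00144, adjusted p = 0.3; rho = -0.88, p = 0.00724), with r = -0.95 without vehicle mouse 2 and prednisolone mouse 3.

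**Figure D3:**
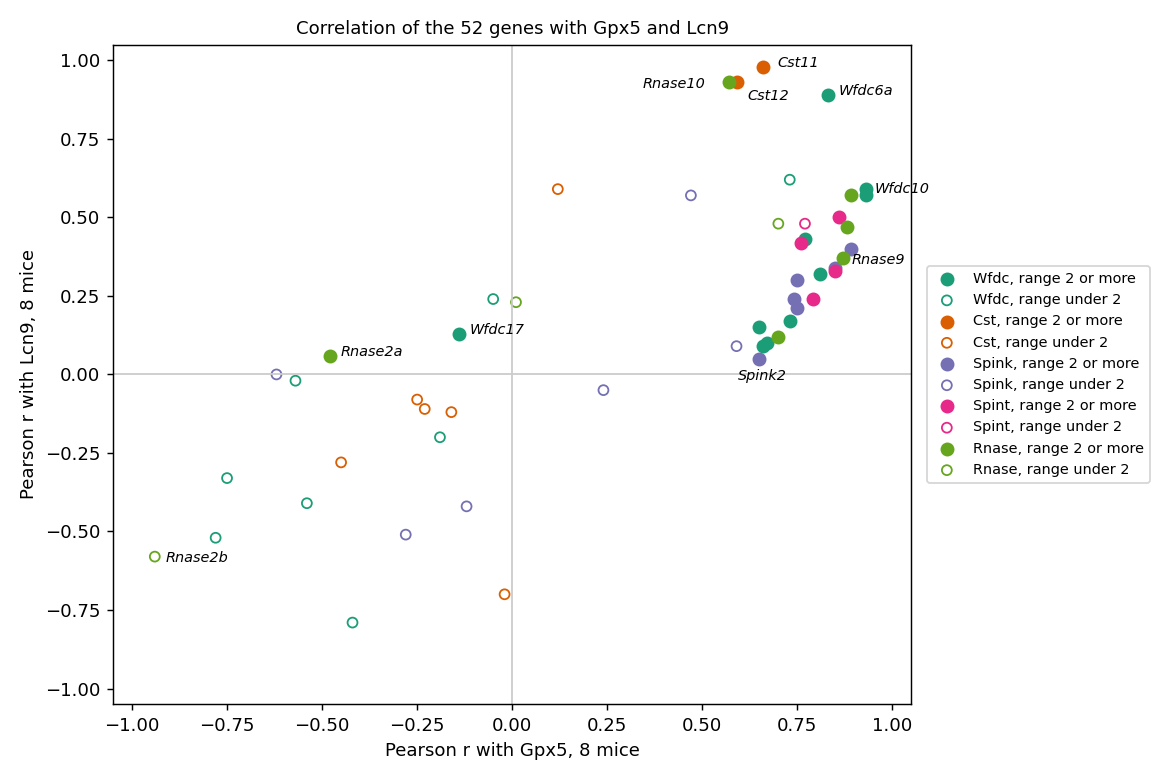
Each point is 1 of the 52 genes, placed by Pearson's r with Gpx5 (horizontal axis) and with Lcn9 (vertical axis) over 8 mice, coloured by family and filled where the range was 2 or more. Most filled points lie at 0.65 to 0.93 on the Gpx5 axis, with Cst11, Cst12, Rnase10 and Wfdc6a apart at 0.89 to 0.98 on the Lcn9 axis and Rnase2a and Wfdc17 to the left of 0.

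The comparison of prednisolone with vehicle asks whether chronic glucocorticoid on this diet changed the level of these genes in the depot. No family gene passed the threshold, and neither did any of the 22180 genes (limma with Benjamini-Hochberg adjustment over all genes, 0%, lowest adjusted p 0.791). At an unadjusted p under 0.05 the same model listed 3 of the 52 genes against 5.61% of all genes: Rnase2a and Wfdc5 were higher with prednisolone (3.51% of all genes) and Spink1 lower (2.1%). The mean was lower with prednisolone in 33 of 52 genes against 43.6% of all genes, and the median difference was -0.14 against 0.02 for all genes. All 22 genes brightest in vehicle mouse 1 had lower means with prednisolone, a direction that grouping them by their brightest mouse largely sets. The differences were -2.98 to -0.50 with standard errors of 0.49 to 2.13 (n = 4 per group, limma unadjusted p 0.073 to 0.591, adjusted p 0.791 to 0.913).

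The largest of these differences belonged to Rnase13, with 5.18 ± 0.52 with prednisolone and 8.16 ± 3.46 with vehicle (SD, n = 4), a difference of -2.98 ± 1.46 (SE, limma adjusted p = 0.791). Spink11 differed by -2.92 ± 2.13 and Spint4 by -2.81 ± 2.04 (SE, limma adjusted p = 0.804 for both). The SD of the vehicle group exceeded these differences, since vehicle mice 2 and 3 read like the dim prednisolone mice. Cst11 had the opposite sign, with 7.31 ± 3.52 with prednisolone and 5.64 ± 1.56 with vehicle (SD, n = 4), a difference of 1.67 ± 1.61 (SE, limma adjusted p = 0.838), which was 0.02 without prednisolone mouse 2. When the 3 mice with Gpx5 above 13, vehicle mice 1 and 4 and prednisolone mouse 2, were left out, 19 of the 22 differences turned positive, Spint4 to 0.55 and Rnase9 from -2.54 to 0.71. That choice removes the mice that define the 22 genes. With the Gpx5 level as a covariate and all 8 mice kept, 0 of the 22 differences changed sign, and they ran from -2.39 to -0.13, with Spint4 at -1.85, Rnase9 at -1.54 and Spink11 at -1.92. Cst11 differed by 2.34 in that model. Gpx5 was highest in prednisolone mouse 2, at 13.81, where the 22 genes had a median of 7.04. The choice of the 22 genes by their brightest mouse therefore bears on the signs in that model too. With array weights, which are estimated from the data, 10 of 52 genes had an unadjusted limma p under 0.05, beside 2081 of all 22180 genes, where the unweighted model listed 3 and 1244. Omitting vehicle mouse 2 gave 11 (2098 of all genes) and omitting vehicle mouse 3 gave 10 (1778). Leaving out vehicle mouse 4 gave 1 (715), prednisolone mouse 4 also 1 (879) and prednisolone mouse 3 gave 0 (912). The summed epididymal markers ran from 9.88 to 16.42 with prednisolone and from 9.75 to 15.80 with vehicle. They were highest in prednisolone mouse 2, whereas the 22 genes were highest in vehicle mouse 1. The part of epididymal content in the differences was not tested.

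**Figure D4:**
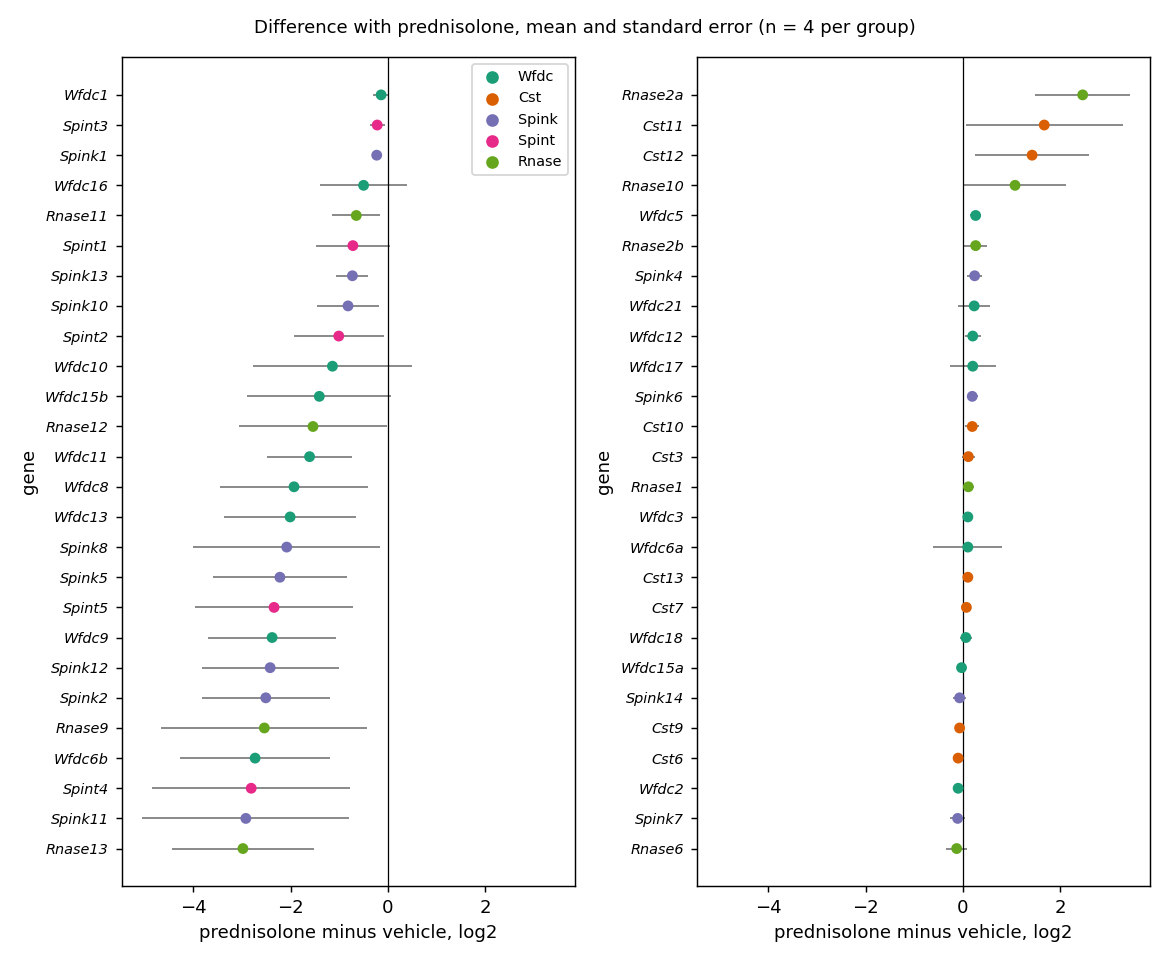
Difference in mean log2 expression between prednisolone and vehicle mice for each of the 52 genes (points, coloured by family) with its standard error (lines, n = 4 per group), ordered by size in 2 panels. The widest lines belong to Spink11, Rnase9 and Spint4, with standard errors of 2.13, 2.12 and 2.04, and Rnase2a, at 2.46, has one of 0.97.

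Genes of white blood cells and of fat itself gave the remaining results. Rnase2a, an eosinophil-associated ribonuclease that macrophages can also make, read 8.50, 9.21, 11.46 and 9.38 in prednisolone mice 1 to 4 and 8.64, 9.05, 5.86 and 5.17 in vehicle mice 1 to 4. Prednisolone mouse 3 was the highest and vehicle mice 3 and 4 the lowest, while vehicle mice 1 and 2 lay among the treated mice. The difference was 2.46 ± 0.97 (SE, n = 4 per group, limma unadjusted p = 0.0336, adjusted p = 0.791). Leaving out 1 mouse at a time gave differences of 1.79 to 3.08 and unadjusted limma p of 0.0125 to 0.0924. Rnase2b, its close relative, read 6.53, 6.21, 7.19 and 6.82 with prednisolone and 6.19, 6.84, 6.58 and 6.10 with vehicle, a difference of 0.26 ± 0.24 (limma adjusted p = 0.828). Whether probes of such near copies bind both transcripts was not tested. Rnase6, an antimicrobial ribonuclease of monocytes and macrophages, read 7.56, 7.25, 6.64 and 7.00 with prednisolone and 7.50, 7.22, 6.84 and 7.42 with vehicle.

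Eosinophil and macrophage markers stood as follows beside Rnase2a. The 8 eosinophil and neutrophil markers summed to 8.24 to 8.55 with prednisolone and 8.32 to 8.57 with vehicle, and the eosinophil peroxidase gene Epx lay between 5.70 and 6.03 in all 8 mice. Epx thus lay around 5.82, the level under which 33.3% of all genes fell. The eosinophil markers Prg2, at 4.92 to 5.72, and Ccr3, at 3.39 to 4.49, lay below it. Markers this dim say little about eosinophil content, which was not tested. The 8 macrophage markers summed to 12.73 to 13.16 with prednisolone and to 12.08, 12.57, 13.37 and 12.14 in vehicle mice 1 to 4. Vehicle mouse 3, the richest in macrophage markers, was thus among the lowest in Rnase2a. The mean was higher with prednisolone in all 8 macrophage markers, as in 12503 of all 22180 genes. The unadjusted limma p was under 0.05 in 2 of the 8, against 5.61% of all genes. These were Gpnmb, which differed by 1.07 ± 0.35 (limma unadjusted p = 0.0151), and Trem2, by 0.72 ± 0.27 (unadjusted p = 0.0259). Both did not pass the adjustment. The part of these cells in the difference of Rnase2a was not tested.

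Wfdc17, a whey acidic protein made by activated macrophages, read 9.61, 8.44, 8.44 and 8.44 with prednisolone and 8.02, 8.43, 9.88 and 7.79 with vehicle. The high mice, vehicle mouse 3 and prednisolone mouse 1, had macrophage marker sums of 13.37 and 13.16. Prednisolone mouse 3 had the same sum, 13.16, with Wfdc17 at 8.44. The group difference was 0.20 ± 0.47 (SE, limma adjusted p = 0.933). Wfdc21, a whey acidic protein secreted by fat cells, read 10.23, 9.74, 9.95 and 10.16 with prednisolone and 9.66, 10.16, 10.53 and 8.83 with vehicle. Its difference of 0.23 ± 0.33 (limma adjusted p = 0.889) was below its standard error. Cystatin C, encoded by Cst3 and secreted by most cells, varied little, at 11.41 to 11.79 with prednisolone and 11.19 to 11.76 with vehicle. Cst7, the cystatin of white blood cells, lay between 6.00 and 6.40.

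**Figure D5:**
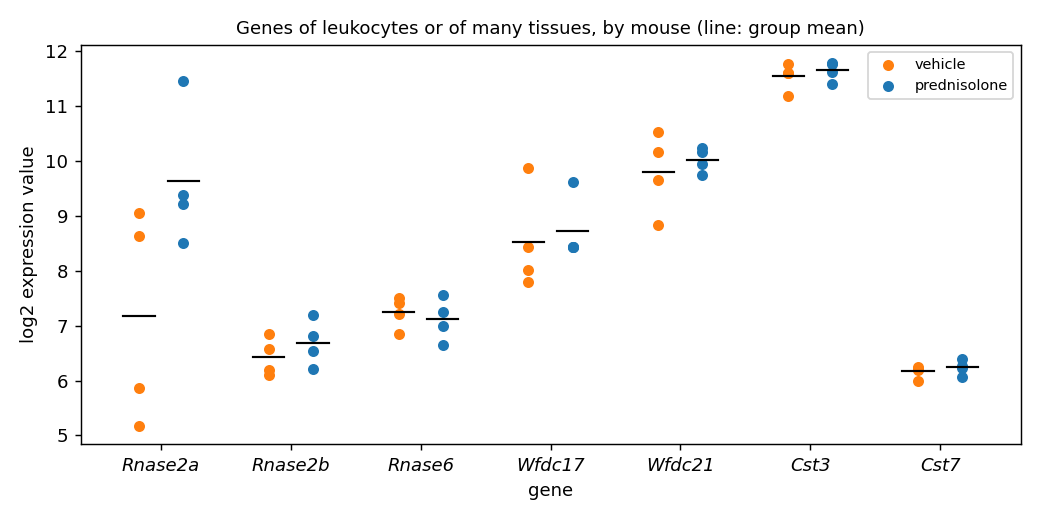
Log2 expression value of each mouse (points, vehicle and prednisolone side by side) with the group mean (line) for 7 genes of white blood cells or of many tissues. Rnase2a spreads from 5.17 to 9.05 with vehicle and from 8.50 to 11.46 with prednisolone, Wfdc17 has 1 high mouse in each group, and Cst3, Cst7, Rnase6 and Rnase2b overlap between the groups.

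Small differences were found in some dim genes. Spink1, the trypsin inhibitor of the pancreas, was the only member whose groups did not overlap (3.25% of all genes), although its values touch when rounded. It read 4.35, 4.12, 4.27 and 4.41 with prednisolone and 4.53, 4.47, 4.64 and 4.41 with vehicle, a difference of -0.23 ± 0.09 (limma unadjusted p = 0.0391, adjusted p = 0.791). Wfdc5, a whey acidic protein of the epidermis, read 5.65, 5.63, 5.84 and 6.04 with prednisolone and 5.44, 5.64, 5.61 and 5.41 with vehicle (0.26 ± 0.11, limma unadjusted p = 0.0474, adjusted p = 0.791). Both lie below 5.82, the level under which 33.3% of all genes fell, as did 17 of the 52 genes by mean. Leaving out 1 mouse at a time gave unadjusted limma p of 0.0309 to 0.106 for Spink1 and 0.0307 to 0.125 for Wfdc5. Cst10 read 4.04 to 4.67 with prednisolone and 4.04 to 4.19 with vehicle, and Cst6, Cst9, Cst13 and Rnase1 varied by 0.26 to 0.52. Wfdc1, Wfdc2, Wfdc3, Wfdc12, Wfdc15a and Wfdc18 varied by 0.28 to 0.68.

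Relatives that the symbol rule leaves out were read from lists. A range of 2 or more was reached by 3 of 12 other whey acidic protein and Kunitz genes, 3 of 10 other cystatins and stefins, 0 of 6 other ribonuclease A genes measured and 3 of 15 serpins, against 3.27% of all genes. The serpins Serpina1f, at 13.25 and 13.01 in vehicle mice 1 and 4 and 5.87 to 7.99 in the other 6, and Serpina16, at 10.60 and 9.86 against 4.56 to 6.39, had the pattern of Rnase13 and were named after their values were seen. In the comparison with vehicle, no listed relative or protease passed the adjusted threshold. The unadjusted limma p was under 0.05 in 3 of 12 whey acidic protein and Kunitz genes, 2 of 10 cystatins, 1 of 6 ribonucleases, 1 of 15 serpins and 1 of 23 proteases, against 5.61% of all genes. Ahsg, the plasma protein fetuin A, was lower with prednisolone by -2.03 ± 0.65 (limma unadjusted p = 0.0131, adjusted p = 0.791). It read 8.97, 7.10, 6.71 and 9.84 in vehicle mice 1 to 4 and 5.70, 6.58, 6.43 and 5.77 with prednisolone. The groups thus did not overlap, as in 3.25% of all genes. Ahsg was highest in vehicle mice 1 and 4, the mice that were also bright for the serpins above, while vehicle mice 2 and 3 lay near the prednisolone mice. Tfpi2, a Kunitz inhibitor of plasmin and trypsin, was higher by 0.49 ± 0.16 (limma unadjusted p = 0.0139, adjusted p = 0.791). Among cathepsins, Ctsl differed by 0.23 ± 0.10 (limma unadjusted p = 0.0469), Ctss by 0.51 ± 0.23 (unadjusted p = 0.0572) and Ctsb by 0.21 ± 0.10 (unadjusted p = 0.0593). The limma adjusted p was 0.791 for each. Ctsh, Ctsc and Ctsk differed by 0.01, 0.10 and -0.14.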

How the data were processed

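One array per mouse was analysed for 4 prednisolone and 4 vehicle mice, which the labels describe as biological replicates. The deposited values are log2 expression values made by the authors with robust multiarray averaging in Affymetrix Expression Console, per the submitters' processing notes, which also name Partek 6.6 without a role. This averaging equalises the arrays' distributions and compresses differences at low signal, and the number of arrays limits precision. The annotation's genome build is not given in the sources used here.

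Of 41345 probe sets, 23521 had 1 gene symbol in the platform annotation, 1814 several and 16010 none. Only the first kind was used, with the highest mean over 8 arrays for each gene, and dim genes were kept. Rnase4 shares its probe set with Ang and was left out. Cst8, which stands beside Cst12 in the genome, had no probe set with 1 gene symbol and was not measured. Cst3 and Wfdc12 had several probe sets, whose differences had the same sign. Marker sums are log2 of summed linear signals.

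The treatment groups were compared in limma 3.58.1 (R 4.3.3, lmFit and eBayes, no covariate), with Benjamini-Hochberg adjustment over 22180 genes and a threshold of 0.05. The median standard error was 0.13. Correlations were tested by exact permutation in numpy 2.4.6, and p-values were adjusted over 22179 genes. The tests were tried on simulated data first. Values are given for genes with a range of 2 or more, for the 2 highest means of each family and for the lowest p, and lists were read by counts. Members, lists and rules were chosen with earlier results of these data known. Correlations within 6 mice were added after the values were seen. Promoters were matched by symbol, 35 of 52, with 1 start per gene. Figures used matplotlib 3.10.9.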

Additional observations from a re-analysis of the deposited data

Results flagged for a closer look

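In 3 of 70 groups of 4 mice, taken over 35 genes with both reference genes included, 1 mouse stood far from the other 3 by Dixon's ratio of the gap to the range. Chance gives about 1 in 20 such groups. Prednisolone mouse 2 read 7.69 for Spink5 (ratio 0.918) and 7.66 for Spint1 (ratio 0.961), while the other prednisolone mice lay between 5.73 and 5.89 and between 5.91 and 5.98. Prednisolone mouse 1 read 9.61 for Wfdc17 (ratio 0.995), with all other prednisolone mice at 8.44.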

How the results depend on the processing

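No gene passed the adjusted limma threshold for prednisolone against vehicle under any alternative run, leaving out single mice included. The count of family genes at an unadjusted p under 0.05, 3 in the report, was 10 with array weights, 1 without dim genes, 0 with trend and robust eBayes and 1 without the 3 mice with Gpx5 above 13, and 3 with the Gpx5 level as a covariate. The count over all genes, 1244, became 2081 with array weights. Deviations of same-numbered mice correlated at -0.19, -0.58, 0.13 and -0.28. With 1 mouse per number in each group, these values cannot tell whether the replicate numbers pair the mice. With the replicate block, 818 genes and 0 family genes had an unadjusted p under 0.05 and 0 passed the adjustment.

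Leaving out 1 mouse at a time, the counts at an unadjusted p under 0.05 were 0 to 11 family genes and 715 to 2098 genes for prednisolone, 13 to 28 family genes and 2262 to 3488 genes for Gpx5, and 4 to 11 and 938 to 1539 for Lcn9. The extremes for prednisolone came without prednisolone mouse 3, vehicle mouse 2 and vehicle mouse 4. A range of 2 or more was reached by 26 to 28 family genes. Differences crossed 0 for Cst3 (-0.01 to 0.19), Rnase10 (-0.09 to 1.65), Wfdc16 (-1.01 to 0.26), Wfdc17 (-0.09 to 0.65), Wfdc21 (-0.09 to 0.47) and Wfdc6a (-0.57 to 0.56). So did r with Gpx5 for Wfdc17 (-0.29 to 0.05), and r with Lcn9 for Rnase13 (-0.12 to 0.39), Rnase2a (-0.18 to 0.36), Spink2 (-0.21 to 0.30), Wfdc11 (-0.13 to 0.40), Wfdc13 (-0.03 to 0.52), Wfdc17 (-0.02 to 0.33), Wfdc6b (-0.15 to 0.36) and Wfdc9 (-0.18 to 0.34).

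Without the 3 mice with Gpx5 above 13, the difference changed sign in 19 of the 22 genes highest in vehicle mouse 1 and in 3 others. It became 0.44 for Rnase12, 0.71 for Rnase9, 0.25 for Spink10, 0.43 for Spink11, 0.05 for Spink12, 0.10 for Spink2, 0.01 for Spink5, 0.91 for Spink8, 0.19 for Spint1, 0.55 for Spint4, 0.68 for Spint5, 0.63 for Wfdc10, 0.03 for Wfdc11, 0.67 for Wfdc13, 0.23 for Wfdc15b, 1.02 for Wfdc16, 0.31 for Wfdc6b, 0.51 for Wfdc8 and 0.24 for Wfdc9, and -0.03 for Cst3, -0.33 for Wfdc17 and -0.23 for Wfdc21. With array weights Wfdc6a turned to -0.01.

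Without the 2 mice farthest from the median, 1981 genes and 10 family genes correlated with Gpx5 at an unadjusted p under 0.05, and 789 genes with Lcn9. Spearman's rho gave 1807 genes and 14 family genes for Lcn9, and leaving out dim genes gave 722 and 3. The limma slope called 3 genes for Gpx5 and 8 for Lcn9, with 1 family gene, Cst11 (slope 0.87). The r with Lcn9 of Rnase2a, 0.06 in all mice, was -0.40 as rho, -0.14 centred on the group means, -0.19 without the farthest mice and -0.17 within 6 mice, where Wfdc17 had 0.38 with Gpx5. Without the farthest mice r with Lcn9 was -0.02 for Rnase12, -0.18 for Rnase13 and Wfdc11, -0.09 for Spink10, -0.16 for Spink12, -0.26 for Spink2, -0.25 for Spink5, -0.30 for Spint1, -0.12 for Spint2, -0.21 for Wfdc6b and Wfdc9 and -0.11 for Wfdc8. The smaller number of mice is part of those alternatives, and other causes were not tested. The array values carry no count depth, and how far dim genes such as Spink1 and Wfdc5 stood above background was not tested.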
